A study of Mus musculus with 95 samples.

Results

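The genes described here are 9 genes of MHC class I antigen presentation: the heavy chain genes H2-D1, H2-K1, H2-T23, H2-T22, H2-Q4, H2-Q7 and H2-M3, the light chain gene B2m, and Nlrc5, which encodes a regulator of class I transcription. They were taken by symbol, matched 1 gene ID each, and stand among 55471 features of the count table, of which 40308 had at least 1 count. RNA came from the nucleus accumbens of 49 mice on a mixed B6;FVB background with the transgene Tg(Aldh1l1-EGFP/Rpl10a)JD130Htz, in which a ribosomal protein tagged with EGFP is driven by Aldh1l1, an astrocyte gene. All groups carried this transgene and background. Translating ribosome affinity purification of each sample gave an astrocyte fraction (IP), and a portion taken beforehand gave whole-tissue RNA (Input). Dependent mice went through CIE-2BC, 5 rounds of chronic intermittent ethanol (CIE) combined with 2-bottle choice drinking (2BC). Non-Dependent mice were the 2BC controls, and Naïve mice were ethanol naïve. Females and males were used, with 26 and 23 mice, and ages are not given in the sources used here. IP libraries came from 18 Dependent, 13 non-Dependent and 15 Naïve mice, and Input libraries from 18 Dependent, 15 non-Dependent and 16 Naïve mice, in batches C, G, I, J, K and L as labelled. Treatments were compared in batches I to L, which hold 16 Dependent, 13 non-Dependent and 15 Naïve IP libraries and 16 Dependent, 15 non-Dependent and 16 Naïve Input libraries. The remaining pair, C and G, are represented by a single Dependent female apiece. Batch I lacks Naïve mice, and non-Dependent mice are lacking in batch L.

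MHC class I molecules show fragments of the cell's own proteins at the cell surface. A heavy chain folds around a peptide only together with the light chain, beta-2-microglobulin, and the complex is read by CD8 T cells and by receptors of natural killer cells. The peptides are made by the proteasome, carried into the endoplasmic reticulum by the TAP transporter and fitted there by chaperones. Interferons raise transcription of this whole pathway, through interferon-stimulated response elements and through the transactivator that Nlrc5 encodes. In the healthy brain, class I levels are low in most cells, with microglia and endothelial cells as known sources, and astrocytes are known to raise class I in reaction to interferon.

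In GRCm38 with the GENCODE M21 annotation, the 7 heavy chain genes lie on chromosome 17. They are H2-K1 (chr17:33996017-34000347, minus strand), H2-D1 (chr17:35262730-35267499, plus strand), H2-Q4 (chr17:35379617-35385290, plus strand), H2-Q7 (chr17:35439155-35443773, plus strand), H2-T23 (chr17:36029773-36032855, minus strand), H2-T22 (chr17:36037128-36042747, minus strand) and H2-M3 (chr17:37270220-37274484, plus strand). B2m lies apart from them (chr2:122147686-122153083, plus strand), as does Nlrc5 (chr8:94434356-94527272, plus strand). Exons of H2-T22, H2-Q4 and Nlrc5 overlap exons of an antisense gene (A930015D03Rik, Gm11131 and 9330175E14Rik), and the use of strand in counting was not given in the sources used here. Class I heavy chains also resemble each other in sequence. Of all windows of 50 bases in the annotated transcripts of H2-T22, 34.5% also occurred in a transcript of another gene, mostly H2-T10. The share was 26.4% in H2-Q7 and 21.8% in H2-Q4, between 9.63% and 13.6% in H2-D1, H2-K1 and H2-T23, 0.576% in H2-M3 and 0 in B2m and Nlrc5. By this measure H2-T22, H2-Q7 and H2-Q4 are the least certain in the assignment of counts to 1 gene. Class I genes also differ between mouse strains, and the effect of the mixed background on counts against this reference was not tested.

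Promoters are shown because 8 of the genes rose together, as described further on. RefSeq promoter sequences (GRCm38.p6) matched 8 of the 9 genes, all but Nlrc5. The 250 bases before each start were searched on both strands for an interferon-stimulated response element (ISRE, GAANNGAAA, or the same with a further A just before NN), an interferon gamma activated site (GAS, TTCNNNGAA), a kappa B motif (GGGGATT), the X2 box (TGNTGAC) and CCAAT. The 200 bases before the start are given for H2-D1 (chr17:35262894-35263093, plus strand), a classical heavy chain, H2-Q7 (chr17:35438955-35439154, plus strand), which had the largest fold change, B2m (chr2:122147487-122147686, plus strand), and H2-T23 (chr17:36032702-36032901, minus strand), which differed between fractions. The RefSeq starts of H2-D1, B2m and H2-T23 lie within their GENCODE genes. The sequences run 5′ to 3′ on the gene's strand, with motif matches in capitals.

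H2-D1: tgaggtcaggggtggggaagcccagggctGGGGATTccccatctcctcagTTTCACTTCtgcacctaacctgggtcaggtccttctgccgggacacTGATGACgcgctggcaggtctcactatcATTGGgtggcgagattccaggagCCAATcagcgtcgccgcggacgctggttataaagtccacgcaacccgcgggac
H2-Q7: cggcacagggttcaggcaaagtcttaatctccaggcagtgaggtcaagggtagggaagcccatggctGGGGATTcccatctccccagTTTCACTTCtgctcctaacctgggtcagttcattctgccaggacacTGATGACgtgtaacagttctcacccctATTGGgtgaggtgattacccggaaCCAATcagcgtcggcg
B2m: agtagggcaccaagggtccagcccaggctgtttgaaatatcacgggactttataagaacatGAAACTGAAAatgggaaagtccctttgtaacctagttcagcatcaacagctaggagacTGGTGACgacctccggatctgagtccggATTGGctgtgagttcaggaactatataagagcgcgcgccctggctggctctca
H2-T23: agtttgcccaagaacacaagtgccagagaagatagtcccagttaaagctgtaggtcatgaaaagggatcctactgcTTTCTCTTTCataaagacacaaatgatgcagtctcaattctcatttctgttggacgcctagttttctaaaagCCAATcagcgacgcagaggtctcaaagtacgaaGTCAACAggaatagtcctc

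In H2-D1 and H2-Q7 the capitals mark, in order, the kappa B motif, the ISRE on the other strand, the X2 box, and CCAAT on the other and then on the gene's strand. In B2m they mark the ISRE, the X2 box and CCAAT on the other strand. In H2-T23 they mark the ISRE on the other strand, CCAAT, and the X2 box on the other strand close to the start. All 8 promoters held an ISRE, against 8.91% of 27025 promoters of the table, an X2 box (11.7%) and CCAAT (34.5%). The kappa B motif (2.78%) was found in H2-D1, H2-K1, H2-T22, H2-Q4 and H2-Q7, and GAS (7.18%) in H2-M3 alone. An X2 box followed within 60 bases by CCAAT on the other strand was present in all but H2-T23, against 0.377% of all promoters. A kappa B motif followed in the same way by an ISRE was present in H2-D1, H2-K1, H2-Q4 and H2-Q7, against 0.0555%. Both arrangements were chosen after the sequences were seen, the heavy chain promoters share sequence with each other, and a match of letters is not a bound site.

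The libraries held 14314236 to 27146790 counts in IP and 12803108 to 23948193 in Input. All values below are CPM, counts scaled to the library total and by TMM factors, and a count of 0 allows up to 3 counts, which is 0.103 to 0.281 CPM depending on the library. The purification was checked with markers: all 8 astrocyte markers were higher in IP than in Input (median log2 fold change 3.14), against 36% of all genes called as higher, and all 10 microglia markers were lower (median -1.03), against 45.9% called as lower. The summed level of the 10 microglia markers in IP ran from 178 to 769 CPM in Dependent mice (median 256), from 177 to 287 CPM in non-Dependent mice (median 223) and from 184 to 312 CPM in Naïve mice (median 246). None of the 10 was at 0 in any library. The T cell gene Cd3e had 0 counts in the IP of 17 of 18 Dependent, 13 of 13 non-Dependent and 15 of 15 Naïve mice. It is 1 of 10 listed T and natural killer cell markers, and others of that list did have counts. The summed level of the 10 T and natural killer cell markers in IP ran from 14.3 to 37.2 CPM in Dependent mice (median 25.3), from 24.4 to 47.9 CPM in non-Dependent mice (median 32.5) and from 18.6 to 42.3 CPM in Naïve mice (median 30.4). In bulk RNA of this kind, fewer cells of a type and less RNA per cell cannot be told apart.

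Class I levels without dependence were led by the light chain. Per kilobase of exon, the IP of Naïve mice held a median of 371 CPM per kilobase of B2m, 29.5 of H2-D1 and 28.1 of H2-K1. The order of the last 2 depended on the batch: the ratio of H2-D1 to H2-K1 was 0.686 to 0.818 in the 4 Naïve mice of batch J, 0.730 to 1.196 in the 4 of batch K and 1.13 to 1.43 in the 7 of batch L, and over all 15 the levels overlapped (28.9 ± 8.37 and 28.4 ± 3.97 CPM per kilobase, SD, n = 15). H2-T22 followed at 5.00, H2-T23 at 3.56 and H2-M3 at 1.23 CPM per kilobase. H2-Q4 (0.159) and H2-Q7 (0.0764) were near the limit of detection, and Nlrc5 had 0 counts in 8 of 15 Naïve IP libraries. In Dependent mice the order of medians in IP was B2m at 669, H2-D1 at 87.5, H2-K1 at 48.4, H2-T23 at 9.82, H2-T22 at 7.48, H2-M3 at 2.84, H2-Q7 at 1.25, H2-Q4 at 0.573 and Nlrc5 at 0.147 CPM per kilobase. The median of H2-T23 stood above that of H2-T22 in Dependent mice and below it in Naïve mice, but the spread among Dependent mice was wider than that gap (26.5 ± 35.0 and 10.9 ± 8.44 CPM per kilobase, SD, n = 16).

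**Figure D1:**
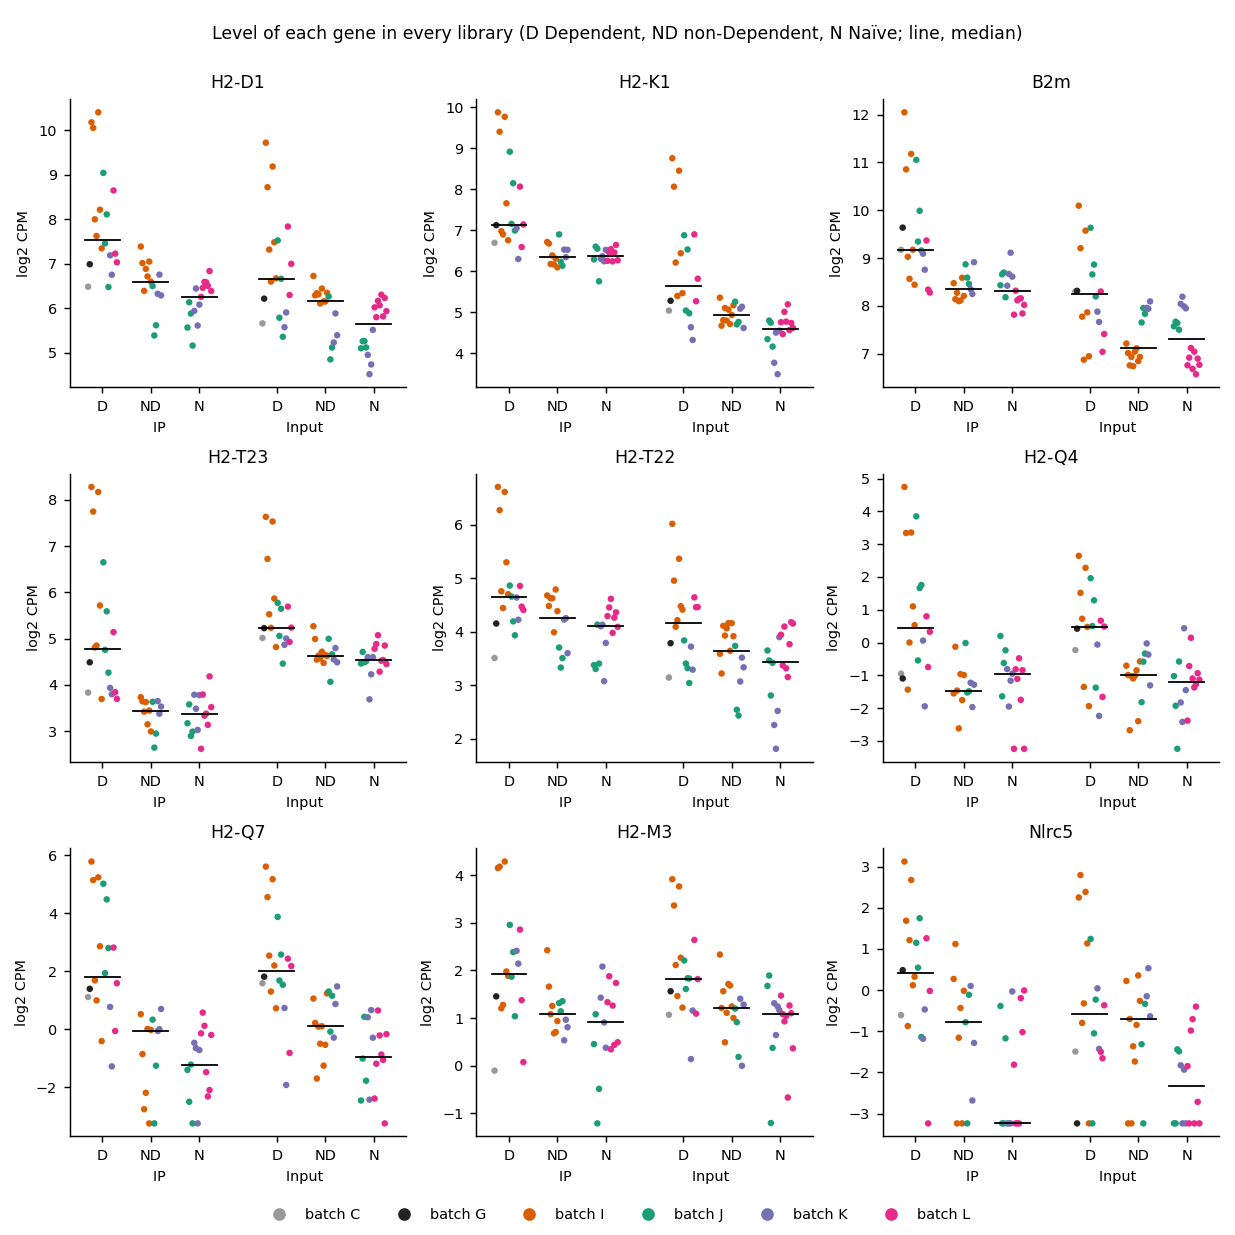
Level of the 9 genes in each library as log2 CPM (prior count 2), in IP on the left and Input on the right of each panel, with colours for batches and a line at the median of each treatment. The Dependent libraries spread upward, led by mice of batches I and J, while for the more abundant genes the non-Dependent and Naïve libraries stay at the lower end.

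Dependent mice had more class I RNA in the astrocyte fraction than non-Dependent mice. Of the 9 genes, 8 rose and Nlrc5 did not pass the test, against 1.54% of 19979 genes called (1.1% as higher). The median log2 fold change of the 9 was 1.71, against 0.0021 over all genes tested. Against Naïve mice, which share the Dependent samples with the first comparison, 8 rose and Nlrc5 again did not pass, against 4.67% of genes called (2.81% as higher), with a median of 1.86. H2-Q4 reached the filter on low counts mainly in Dependent libraries, as given below, and so does not support either count; of the other 8 genes, 7 rose in each comparison. Between non-Dependent and Naïve mice, 0 of the 9 passed edgeR's test (also 0 at an unadjusted p under 0.05, and 0 with DESeq2 or limma voom), against 0.44% of genes called.

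The classical heavy chains present peptides to CD8 T cells. H2-D1 had 88.7 to 1350.5 CPM in the IP of Dependent mice (median 226), 41.6 to 167 CPM in non-Dependent mice (median 96.4) and 35.6 to 114 CPM in Naïve mice (median 76.1). CPM ranges and medians of Dependent mice, here and for the genes below, are over the 16 mice of batches I to L. Of all 18 Dependent IP libraries, batches C and G included, 10 lay above the highest non-Dependent one and 15 above the highest Naïve one. The pooled groups thus overlapped at their lower ends. Such counts over 18 libraries, here and for the genes below, pool batches with unlike control levels, as in batches I and J (medians of 118 and 48.8 CPM of H2-D1). Batches C and G hold no controls. The share of all genes so placed is not given, so these counts have no background. The log2 fold change was 1.92 ± 0.32 (SE, edgeR quasi-likelihood test with Benjamini-Hochberg adjustment, as for all adjusted p-values here, adjusted p = 0.000678) against non-Dependent and 1.86 ± 0.33 (adjusted p = 0.000448) against Naïve mice. H2-K1 had 78.9 to 944 CPM in Dependent mice (median 142), 68.4 to 120 CPM in non-Dependent mice (median 81.4) and 54.1 to 100.03 CPM in Naïve mice (median 82.6). Its control libraries were the tightest of the 9 genes in IP relative to their mean, at 85.8 ± 15.7 CPM in non-Dependent (SD, n = 13) and 83.5 ± 11.7 CPM in Naïve mice (SD, n = 15). H2-K1 rose by 1.71 ± 0.31 (adjusted p = 0.00176) against non-Dependent and by 1.40 ± 0.33 (adjusted p = 0.00755) against Naïve mice on the log2 scale.

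B2m encodes the light chain that class I heavy chains pair with. It had 311 to 4231 CPM in the IP of Dependent mice (median 575), 275 to 482 CPM in non-Dependent mice (median 326) and 225 to 554 CPM in Naïve mice (median 319). The lowest Dependent libraries lay within both control ranges, and the highest was 7.35 times the group's median. B2m rose by 1.64 ± 0.31 (adjusted p = 0.00218) against non-Dependent and by 1.18 ± 0.32 (adjusted p = 0.0268) against Naïve mice on the log2 scale.

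The nonclassical heavy chains show restricted sets of ligands. H2-T23 encodes Qa-1, which presents leader peptides of other class I chains to natural killer cell receptors. It had 12.9 to 311 CPM in the IP of Dependent mice (median 28.4), 6.14 to 13.2 CPM in non-Dependent mice (median 10.8) and 6.04 to 18.1 CPM in Naïve mice (median 10.3). Of the 18 Dependent libraries, batches C and G included, 16 lay above the highest non-Dependent one. The overlap with Naïve mice was wider, with 12 of 18 above the highest Naïve one. H2-T23 rose by 2.64 ± 0.44 (adjusted p = 0.000706) against non-Dependent and by 1.86 ± 0.46 (adjusted p = 0.0121) against Naïve mice on the log2 scale. H2-T22, known as a ligand of some gamma delta T cells, changed least of the 8 genes that passed: 15.2 to 105 CPM in Dependent (median 25.5), 9.94 to 27.6 CPM in non-Dependent (median 18.98) and 8.32 to 24.4 CPM in Naïve mice (median 17.1). Its log2 fold changes were 0.93 ± 0.19 (adjusted p = 0.0044) against non-Dependent and 0.72 ± 0.21 (adjusted p = 0.0322) against Naïve mice.

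H2-Q7, which encodes Qa-2, and H2-Q4 had the largest fold changes, from low levels. H2-Q7 had 0.308 to 55.1 CPM in Dependent mice (median 5.31), 0 to 1.52 CPM in non-Dependent mice (median 0.859) and 0 to 1.39 CPM in Naïve mice (median 0.326). Of 18 Dependent libraries, 15 lay above every non-Dependent and 15 above every Naïve library. The log2 fold changes were 4.24 ± 0.79 (adjusted p = 0.00195) and 4.37 ± 0.85 (adjusted p = 0.00117). H2-Q4 had 0.154 to 26.7 CPM in Dependent mice (median 1.49), 0.0571 to 0.885 CPM in non-Dependent mice (median 0.257) and 0 to 1.04 CPM in Naïve mice (median 0.413), with log2 fold changes of 3.603 ± 0.61 (adjusted p = 0.000619) and 2.52 ± 0.62 (adjusted p = 0.0106). The filter on low counts asked for about 0.522 CPM in IP, which H2-Q4 reached in 13 of 16 Dependent, 2 of 13 non-Dependent and 4 of 15 Naïve libraries. H2-Q4 therefore entered the test mainly through the group in which it was high, and the same held for Nlrc5 (12 of 16, 6 of 13 and 4 of 15) and in part for H2-Q7 (15 of 16, 7 of 13 and 6 of 15).

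H2-M3, which presents N-formylated peptides, had 0.948 to 19.4 CPM in Dependent mice (median 4.08), 1.34 to 5.26 CPM in non-Dependent mice (median 2.01) and 0.326 to 4.13 CPM in Naïve mice (median 1.77). The ranges overlapped widely, and 5 of 18 Dependent libraries exceeded every non-Dependent one. H2-M3 rose by 1.49 ± 0.36 (adjusted p = 0.0168) and by 1.35 ± 0.39 (adjusted p = 0.0345) on the log2 scale. Nlrc5 had 0 to 8.60 CPM in Dependent mice (median 1.25), 0 to 2.07 CPM in non-Dependent mice (median 0.476) and 0 to 0.888 CPM in Naïve mice (median 0). Its log2 fold changes, 1.64 ± 0.73 (adjusted p = 0.334) against non-Dependent and 2.30 ± 0.84 (adjusted p = 0.112) against Naïve mice, had wide errors at these counts and did not pass.

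**Figure D2:**
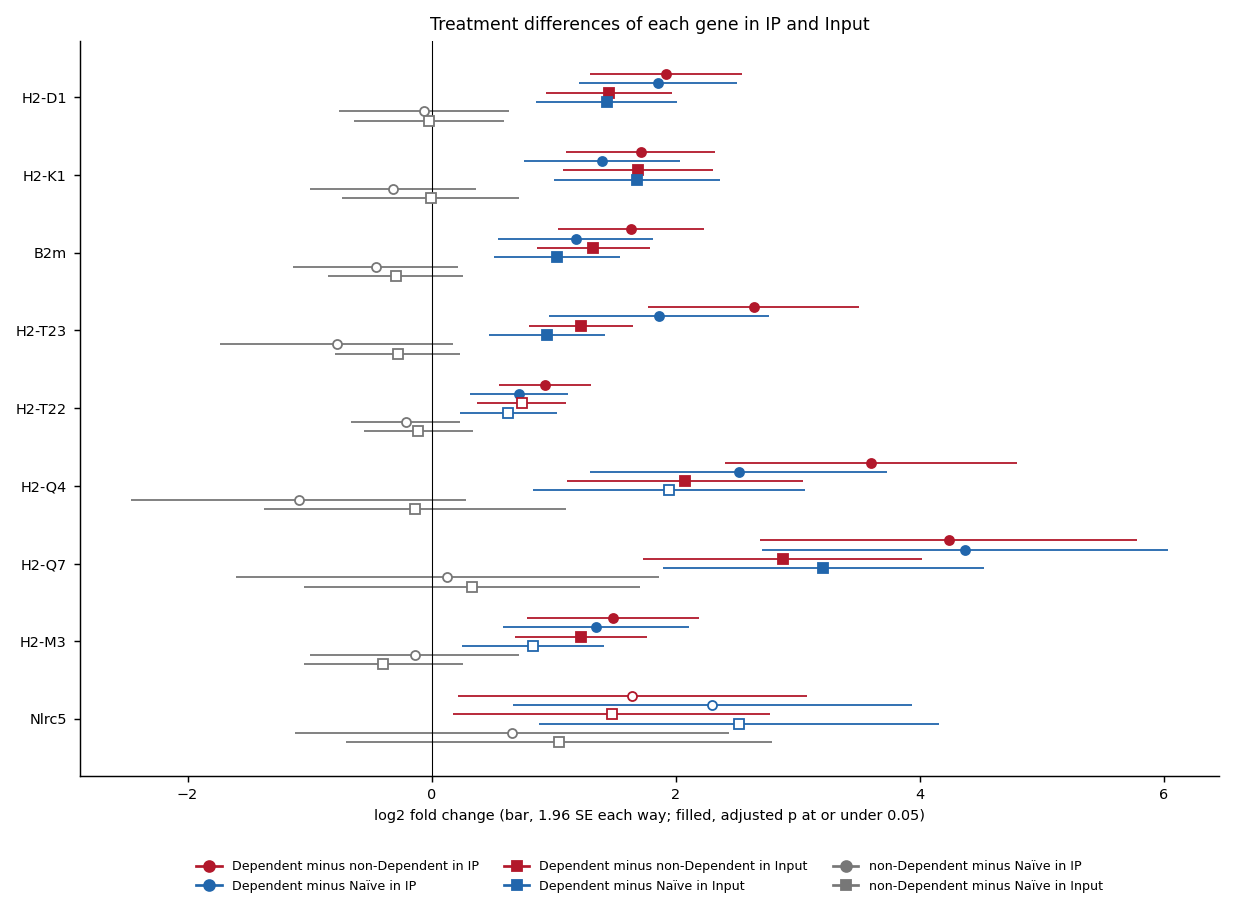
Log2 fold change of each gene with a bar for the 95% interval, in IP (circles) and Input (squares), filled where the adjusted p was at or under 0.05. The differences of Dependent mice from either control lie right of 0 for all 9 genes, and those between non-Dependent and Naïve mice lie around 0 with bars that cross it.

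The size of the difference varied among batches, which was not tested. Differences within a batch are of plain means without a term for sex, and the 2 Dependent mice of batch K were both male. Within batches I, J and K, the median difference of the 9 genes in mean log2 CPM between Dependent and non-Dependent IP was 1.97 (7 against 7 mice), 1.94 (4 against 3) and 0.42 (2 against 3). Against Naïve mice it was 2.10 in batch J (4 against 4), 0.66 in batch K (2 against 4) and 0.86 in batch L (3 against 7). All 9 genes were above 0 in each of these except that H2-Q7 was -0.47 in batch K against non-Dependent mice. H2-D1 differed by 1.97, 1.94 and 0.51 in batches I, J and K against non-Dependent mice, with some overlap of the 2 treatments in each. Against Naïve mice it differed by 2.09, 0.95 and 1.12 in batches J, K and L, and every Dependent mouse was above every Naïve mouse of its batch. The share of all genes separated in this way is not given here, so this separation has no background. Against non-Dependent mice, 0 of the 9 passed when batch I was left out, where 3 of 19752 genes passed in all and the H2-D1 estimate was 1.47 ± 0.37 log2 units (adjusted p = 0.139). In batches J and K alone 0 of the 9 and 0 of 19895 genes passed, and H2-D1 had 1.63 ± 0.45 (adjusted p = 0.299). Against Naïve mice, 8 of the 9 passed without batch I, where 828 of 19752 genes passed in all. Without batch J 1 of the 9 passed (294 of 20788 genes in all), and without batch K 2 did (355 of 20092). The count was 5 without Naïve mouse J01, Dependent mouse J05 or Naïve mouse J08.

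Microglia markers were higher beside class I in some mice. The mean of the 10 microglia markers differed between Dependent and non-Dependent IP by 0.45, 0.29 and -0.20 log2 units in batches I, J and K, and 3 of the 10, the complement genes C1qa (0.75 ± 0.17), C1qb (0.69 ± 0.18) and C1qc (0.83 ± 0.19), rose in the fit. Over all genes 1.54% were called in that comparison. Against Naïve mice 0 of 10 passed (4 at an unadjusted p under 0.05), against 4.67% of genes called. With the marker mean as a covariate, 6 of the 9 class I genes passed against non-Dependent mice, where 194 of 19979 genes passed in all. Among the 6 were H2-D1 (1.18 ± 0.21) and H2-T23 (1.60 ± 0.28), while H2-T22 (0.55 ± 0.15) and H2-M3 (0.86 ± 0.32) did not pass. Against Naïve mice 3 passed with the covariate, H2-D1 (1.22 ± 0.22), H2-K1 (0.73 ± 0.19) and H2-Q7 (3.17 ± 0.65). In that fit 836 of 19979 genes passed in all.

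The 16 Dependent mice of batches I to L spread widely. In IP, 6 of them (I02, I05, I11, J05, J09 and L25) were above every non-Dependent and Naïve mouse of their batch for all 9 genes. Mice I15, K21 and L26 were so for 2 genes each, and the other 7 for 4 to 8. By gene, the count of Dependent mice above every same-batch control was 14 of 16 for H2-K1, 13 for H2-D1, H2-T23 and H2-Q7, 12 for H2-Q4, 11 for B2m, 9 for H2-T22 and H2-M3, and 8 for Nlrc5. With 7 such controls per batch in IP, a gene without a change can also lie above all of them in some mice. The share of all genes so placed is not given here, in IP or Input, so these counts have no background. In fold over the median of the same-batch controls, H2-D1 ran from 1.38 in mouse I15 to 11.5 in mouse I11, and was above 1 in all 16. H2-T23 ran from 1.19 in I15 to 28.9 in I02, and B2m from 1.11 in K21 to 14.3 in I02. Mouse I02 was also the one with the highest microglia sum (769 CPM) and monocyte sum (61.6 CPM) in IP, and mouse J05 followed with 686 and 35.5 CPM. Mice I11 and I05 had microglia sums of 420 and 403 CPM. Mice J09 and L25 had folds of 5.64 and 4.42 for H2-D1 at microglia sums of 340.0 and 331 CPM, a little above the highest control of 312 CPM. The 6 mice above every same-batch control for all 9 genes were thus also the 6 with the highest microglia sums. Mouse L29 came next with 282 CPM. The part of these markers in the class I levels of single mice was not tested. Of the 6 mice, I11 and J05 are male and the others female.

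**Figure D3:**
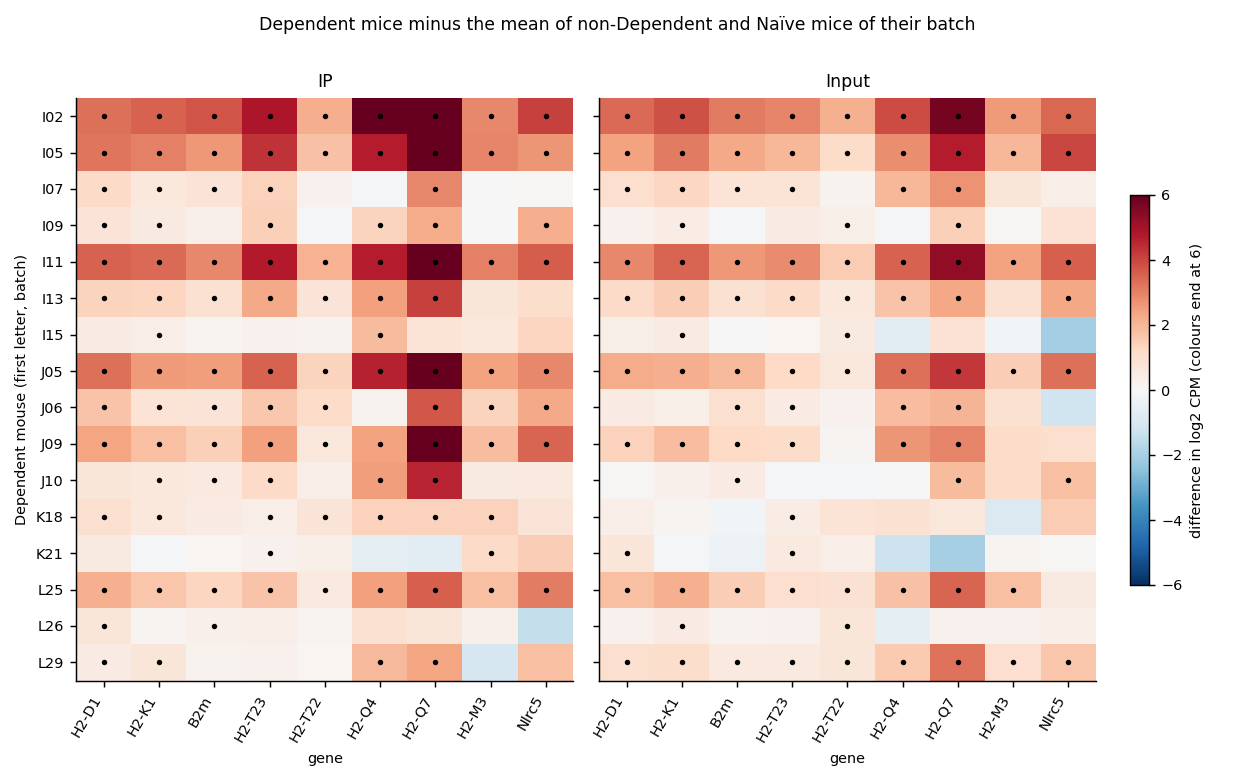
Difference in log2 CPM of each Dependent mouse of batches I to L from the mean of the non-Dependent and Naïve mice of its batch, by gene, in IP and Input, with a dot where the mouse was above every such control. Mice I02, I05, I11 and J05 carry a dot for all 9 genes in both fractions, and I15, K21 and L26 for 2 genes each in IP. The share of all genes that would carry a dot is not given.

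The difference between females and males was tested for each comparison. In IP, 0 of the 9 genes and 0% of all genes passed edgeR's test for the female change minus the male change, both against non-Dependent and against Naïve mice (0 of the 9 also at an unadjusted p under 0.05, and 0 with DESeq2 or limma voom). H2-D1 in IP had 461 ± 409 CPM in Dependent females (SD, n = 8) and 348 ± 429 CPM in Dependent males (SD, n = 8). The estimate for H2-D1 against non-Dependent mice was 0.59 ± 0.58 log2 units higher in females, with a 95% interval from -0.55 to 1.73.

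In whole tissue fewer of the genes passed. In Input, 7 of the 9 rose in Dependent against non-Dependent mice, all but H2-T22 and Nlrc5, against 0.355% of 19691 genes called (0.31% as higher, 0.0457% as lower). H2-Q4, one of the 7, reached the filter level of 0.531 CPM in 11 of 16 Dependent, 5 of 15 non-Dependent and 3 of 16 Naïve libraries and does not support this count. Against Naïve mice 5 rose (H2-D1, H2-K1, B2m, H2-T23 and H2-Q7), against 2.38% of genes called (1.42% as higher), and between non-Dependent and Naïve mice 0 passed (also 0 at an unadjusted p under 0.05, and 0 with DESeq2 or limma voom), against 0.122% of genes called (0.0609% as higher and 0.0609% as lower). H2-D1 had 40.8 to 841 CPM in Dependent Input (median 114), 28.6 to 105 CPM in non-Dependent Input (median 70.9) and 22.7 to 78.6 CPM in Naïve Input (median 50.4). Its log2 fold changes were 1.45 ± 0.26 (adjusted p = 0.00284) against non-Dependent and 1.43 ± 0.29 (adjusted p = 0.00378) against Naïve mice, with 10 of 16 Dependent mice above every same-batch control. B2m had 117 to 1094.5 CPM in Dependent Input (median 265), 107 to 273 CPM in non-Dependent Input (median 138.5) and 95.2 to 293 CPM in Naïve Input (median 160). B2m rose by 1.33 ± 0.24 (adjusted p = 0.00237) and by 1.03 ± 0.26 (adjusted p = 0.027) on the log2 scale. H2-K1 changed by 1.69 ± 0.31 (adjusted p = 0.00361) against non-Dependent and by 1.68 ± 0.35 (adjusted p = 0.00404) against Naïve mice. H2-Q7 again had the largest change, 2.88 ± 0.58 (adjusted p = 0.00985) against non-Dependent and 3.21 ± 0.67 (adjusted p = 0.00444) against Naïve mice. H2-T22 had 0.74 ± 0.19 (adjusted p = 0.0707) and 0.63 ± 0.20 (adjusted p = 0.0929) in these comparisons and did not pass.

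Batch K had the lowest differences, and its 2 Dependent mice were both male, beside controls of both sexes. The median difference of the 9 genes between Dependent and non-Dependent Input was 1.64 in batch I (7 against 9 mice), 0.95 in batch J (4 against 3) and -0.25 in batch K (2 against 3), where 3 of 9 were above 0, H2-D1, H2-T23 and H2-T22. Against Naïve mice it was 1.24 in batch J, 0.40 in batch K and 0.93 in batch L. Without batch I, 0 of 9 and 0 of 20322 genes in all passed against non-Dependent mice, and without mouse I02 or mouse I11 the count was 5. Against Naïve mice 0 of the 9 passed without batch J (133 of 20146 genes in all) or without batch L (95 of 20094), and 3 passed without mouse L25. In Input, P2ry12, a microglia marker, fell against non-Dependent mice (-0.39 ± 0.09, adjusted p = 0.0336) while C1qa rose (0.44 ± 0.11, adjusted p = 0.0435). With the microglia mean as a covariate, 1 of the 9 class I genes passed against non-Dependent mice, H2-T23, and 40 of 19691 genes in all. Against Naïve mice 5 of the 9 passed with the covariate, the same count as without it, and 553 of 19691 genes in all.

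Within a mouse, the most abundant class I genes were higher in the astrocyte fraction than in whole tissue, while H2-T23 was lower in the edgeR fit. Over 46 mice with both libraries, 5 genes were higher in IP than in Input and 1 was lower, against 81.9% of 19677 genes called in this comparison (36% as higher, 45.9% as lower). H2-K1 had the largest difference, with a mean of 161 ± 195 CPM in IP libraries against 58.0 ± 83.7 CPM in those of Input (SD, n = 46, log2 fold change 1.57 ± 0.05, edgeR adjusted p = 1.01e-34), followed by B2m (1.09 ± 0.05), H2-Q4 (0.87 ± 0.17), H2-D1 (0.75 ± 0.06) and H2-T22 (0.63 ± 0.07). H2-K1, B2m and H2-D1 were higher in IP in 46 of 46 mice. H2-Q4 was higher in 27 of 46 mice (22 with plain library totals), and in limma on the difference within a mouse it had 0.11 ± 0.19 (adjusted p = 0.593) and did not pass. With plain library totals in place of TMM, H2-D1 was higher in 42 of 46 mice and the other pair in all 46. H2-T23 was lower, by -0.78 ± 0.10 (adjusted p = 8.61e-10), in 42 of 46 mice under either scaling. H2-Q7, H2-M3 and Nlrc5 did not pass (adjusted p = 0.28, 0.174 and 0.0936), but H2-Q7 passed as lower in limma on the difference within a mouse (-0.41 ± 0.18, adjusted p = 0.034). The median of all genes was -0.12, so that these values are relative to a background slightly below 0. For comparison, the 10 microglia markers had log2 fold changes from -1.37 to -0.19, and the 8 endothelial markers from -1.45 to -0.73.

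The treatment difference of H2-T23 was larger in IP than in Input. Its log2 ratio of IP over Input had a median of -0.47 in Dependent mice (range -1.54 to 1.03, above 0 in 4 of 18), -1.36 in non-Dependent mice (range -1.72 to -0.90, above 0 in 0 of 13) and -1.15 in Naïve mice (range -2.27 to -0.20, above 0 in 0 of 15). The Dependent change against non-Dependent mice was 1.28 ± 0.21 log2 units larger in IP than in Input (adjusted p = 0.00113), and 1 of the 9 genes passed this test, against 0.123% of 19576 genes. The mouse entered this fit as a block, since both libraries come from 1 mouse. Without the block the estimate was 1.60 ± 0.49 (adjusted p = 0.584) and did not pass. H2-Q7 came next at 1.49 ± 0.36 (adjusted p = 0.059), and H2-K1 had the value nearest 0 among the heavy chains (0.066 ± 0.11, a 95% interval from -0.15 to 0.28). Against Naïve mice 0 of the 9 passed (3 at an unadjusted p under 0.05, and 0 in limma on the difference within a mouse), against 0.429% of genes, with H2-T23 at 0.69 ± 0.23 (adjusted p = 0.276).

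**Figure D4:**
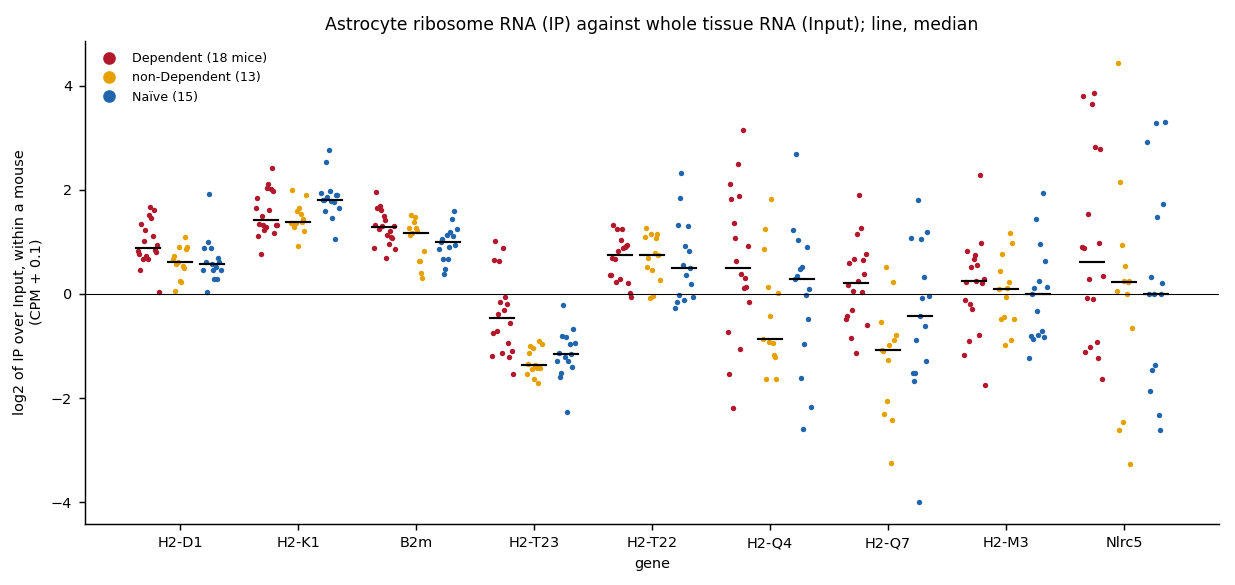
Log2 ratio of IP over Input within each mouse, from CPM plus 0.1, by gene and treatment, with a line at the median. H2-K1, B2m and H2-D1 lie above 0 in every mouse, and H2-T23 lies below 0 in every non-Dependent and Naïve mouse but above it in 4 Dependent mice.

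The ratio of heavy to light chain RNA differed among batches. Per kilobase of exon, the H2-D1 to B2m ratio in Input was 0.171 to 0.274 in the 16 mice of batch I and 0.153 to 0.249 in the 11 of batch L, but 0.0385 to 0.127 in the 11 of batch J and 0.0259 to 0.0980 in the 9 of batch K. The ranges of batches I and L do not overlap with those of J and K, and no label gives what set the batches apart, so that the source of this difference was not tested. In IP the medians were 0.154 in batch I, 0.114 in batch L, 0.0517 in batch J and 0.0711 in batch K. Both genes differed: among non-Dependent and Naïve mice in Input, the median of B2m was 122 and 114 CPM in batches I and L and 201 and 254 CPM in J and K, while H2-D1 had 79.1 and 65.6 CPM and 34.5 and 37.3 CPM. H2-K1 varied less, between 23.4 and 30.6 CPM in the same medians. The single Dependent mice of batches C and G had ratios of 0.0531 and 0.0774 in Input. Within batches the ratio also varied by treatment, which was not tested. In IP of batch I the median was 0.1705 in Dependent and 0.126 in non-Dependent mice. In batch L it was 0.153 in Dependent and 0.112 in Naïve mice. In batch J it was 0.0861 in Dependent, 0.0462 in non-Dependent and 0.0463 in Naïve mice. In batch K these were 0.08575, 0.0815 and 0.0584. In Input the Dependent median was highest in batches I, K and L, but not in J (0.0592, against 0.0629 in Naïve mice).

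**Figure D5:**
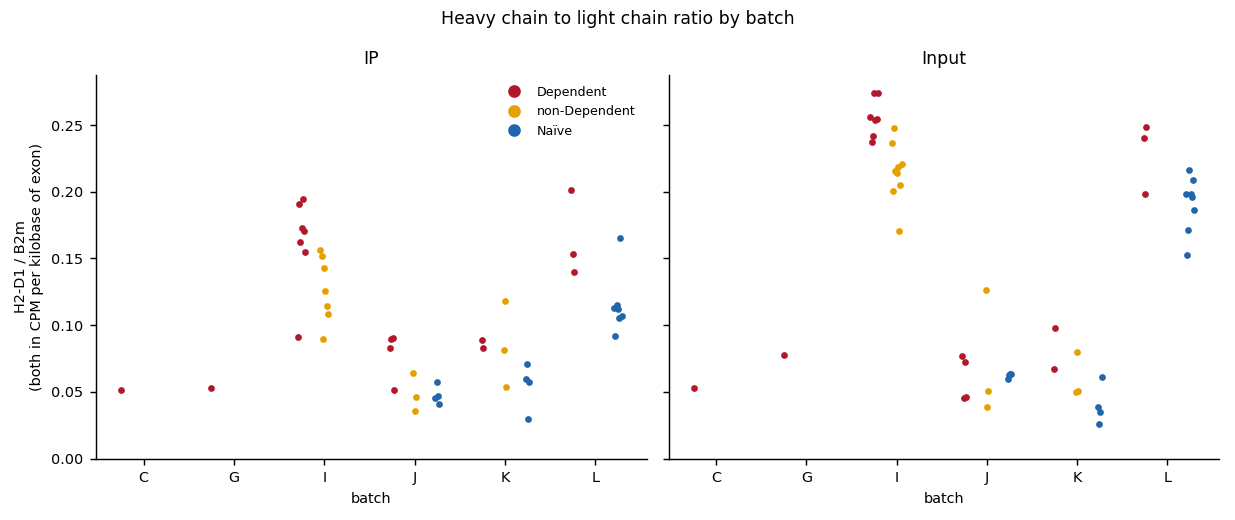
Ratio of H2-D1 to B2m, both in CPM per kilobase of exon, for each library by batch and treatment. In Input, batches I and L lie at 0.153 and above, and batches C, G, J and K at 0.127 and below. Dependent and control mice overlap within batches I to L in Input, with higher Dependent medians in I, K and L.

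The genes that supply class I with peptides rose with it. Of 13 listed genes of the immunoproteasome, peptide transport and loading, 13 rose in IP against non-Dependent mice (median log2 fold change 0.76), against 1.54% of all genes called. Without batch I, 3 genes in all passed in this comparison. This list, like those below, was chosen with earlier results of these data known, so its count is not independent support. The chaperone gene Calr had 413 ± 159 CPM in Dependent IP (SD, n = 16) and 211 ± 48.4 CPM in non-Dependent IP (SD, n = 13), a change of 0.83 ± 0.13. The immunoproteasome subunit Psmb8 had 47.8 ± 54.2 and 6.60 ± 2.48 CPM in these groups (2.81 ± 0.44), Psmb9 changed by 2.89 ± 0.51 and the transporter subunit Tap1 by 2.02 ± 0.37. Against Naïve mice 8 of 13 rose, against 4.67% of genes called, with Canx at 0.43 ± 0.06 and Calr at 0.82 ± 0.14. In Input 4 of 13 rose against non-Dependent mice (Psmb8, Tap1, Psmb9 and Tap2), against 0.355% of genes called, and 1 of 13 against Naïve mice (Psmb8, 1.19 ± 0.32), against 2.38%. All 13 were higher in IP than in Input, in a comparison where 36% of all genes were called as higher.

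Among 21 listed regulators, the interferon-responsive transcription factor genes Irf1 (1.57 ± 0.29) and Irf9 (1.13 ± 0.24) and the interferon receptor gene Ifnar2 (0.44 ± 0.09) rose in IP against non-Dependent mice. In that comparison 1.54% of all genes were called. The median of the 21 was 0.05. Against Naïve mice 2 rose, Irf9 (1.08 ± 0.26) and Irf1 (1.24 ± 0.30), against 4.67% of genes called. In Input 0 of 21 passed edgeR's test against Naïve mice (5 at an unadjusted p under 0.05), against 2.38% of genes called. Of 13 other class I and class I-like heavy chains, 8 had enough counts, and H2-Q6, which shares part of its sequence with H2-Q4, rose in all 4 comparisons with Dependent mice, by 2.91 ± 0.74 in IP and 2.59 ± 0.54 in Input against non-Dependent mice. Against Naïve mice Hfe, an iron regulator with a class I fold, also rose in IP (0.58 ± 0.15), and Cd1d1, which presents lipids, in Input (1.57 ± 0.43).

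MHC class II genes, which present peptides to CD4 T cells, are listed beside class I because they are also marker genes of microglia and macrophages. Of 7, 5 rose in IP and 4 in Input against non-Dependent mice, where 1.54% and 0.355% of all genes were called, and 4 in IP and 2 in Input against Naïve mice, where 4.67% and 2.38% were. The invariant chain gene Cd74 had 76.4 ± 116 CPM in Dependent IP (SD, n = 16) and 1.36 ± 0.971 CPM in non-Dependent IP (SD, n = 13), and H2-Ab1 had 50.6 ± 73.3 and 0.937 ± 0.686 CPM. Of 8 listed genes of receptors for class I and of the cells that carry them, 1 had enough counts to be tested, Pirb, which did not pass. Of the 8 astrocyte markers, 0 passed in IP against non-Dependent mice and 1 against Naïve mice, Gfap (0.98 ± 0.18).

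The 9 genes varied together from library to library. Over the 44 fitted IP libraries, the Pearson correlation of a gene's log2 CPM with the mean of the other 8 was 0.97 for H2-K1 and H2-T23, 0.94 for H2-D1, 0.88 for B2m, 0.80 to 0.87 for H2-T22, H2-M3, H2-Q4 and H2-Q7, and 0.69 for Nlrc5. After the mean of each treatment within each batch was subtracted, it was still 0.97 for H2-K1 and 0.42 for Nlrc5. Among 15257 other genes, those most like the mean z-score of the 9 were the immunoproteasome subunit Psmb8 (0.92), the interferon-inducible GTPase genes Igtp (0.91) and Irgm1 (0.91), Psmb9 (0.90), the complement inhibitor gene Serping1 (0.90), Tap1 (0.89), the complement gene C4b (0.88) and Cd74 (0.88). Within treatment and batch they were Psmb8 (0.89), Psmb10 (0.88), C1qa (0.87), Psmb9 (0.87), Irgm1 (0.86), Psme1 (0.86), Ifi27 (0.85) and Ctss (0.85). C1qa and Ctss are known as microglia genes in brain, and Cd74 as a gene of antigen-presenting cells. These correlations describe libraries that share batch and depth, and no p is given.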

How the data were processed

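RNA was measured in 95 libraries of 49 mice, 46 of them with both an IP and an Input library. The deposited table holds raw counts per gene made by the authors, and libraries used the SMART-Seq PLUS kit, per the labels' protocols. FastQC 0.11.9, Trimmomatic 0.39, STAR 2.7.10b and the GRCm38 genome are named in the submitters' processing notes, and the counting program, strand and read length are not given in the sources used here. Features without a symbol held 0.0192% of the counts.

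Counts were tested with edgeR 4.0.16 (R 4.3.3) by quasi-likelihood, with TMM factors (0.806 to 1.28), filterByExpr (count of at least 10, total of at least 15), robust dispersion, and Benjamini-Hochberg adjustment over all genes tested at 0.05. Models held treatment-by-sex means and batch, over batches I to L, within IP or Input. Comparisons of IP with Input held the mouse as a block, and those of a treatment change between fractions (44 mice) also treatment, sex and batch terms for IP. Same-mouse libraries deviated together (median correlation 0.386 over 7537 genes, above 0.1 in 37 of 41 mice). Log2 CPM used a prior count of 2, and ratios within a mouse used CPM plus 0.1. Intervals and floors cover counting and sampling error only. The edgeR treatment fit in IP was also run on counts simulated with a fixed dispersion and no batch differences. The other fits were not run on simulated counts. DESeq2 1.42.0, limma 3.58.1, other filters, batch choices, a microglia covariate and each library left out were alternatives. The 9 genes and all lists were chosen with earlier results of these data known. Genes were named by a fixed rule: all 9 members, up to 4 genes of each list by smallest p, and the 8 genes most like the members' mean. Each mouse is 1 sample of its group. Python 3.11.15, pandas 2.3.3 and numpy 2.4.6 were used for summaries. Results for 1 gene of the regulator list are not reported here.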

Additional observations from a re-analysis of the deposited data

Results flagged for a closer look

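The change of H2-T23 in Dependent against non-Dependent mice differed between the fractions. It was 1.28 ± 0.21 log2 units larger in IP than in Input (SE, edgeR adjusted p = 0.00113, 44 mice with both libraries in the fit). Its log2 ratio of IP over Input was above 0 in 4 of 18 Dependent, 0 of 13 non-Dependent and 0 of 15 Naïve mice. Limma on the difference within a mouse gave 1.09 ± 0.21 (adjusted p = 0.0331).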

How the results depend on the processing

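Against non-Dependent mice in IP, 0 of the 9 genes passed in batches J and K alone and 0 without batch I, and otherwise 6 to 9 did. Over all genes, 0 and 3 passed there, and otherwise 92 to 684. Against Naïve mice in IP the count of the 9 was 3 with limma voom (940 over all genes) and 2 in batches J and K alone (235). It was 1 without batch J (294), 2 without batch K (355) and 3 with the microglia covariate (836). In Input against non-Dependent mice it was 0 in batches J and K alone (0 over all genes), 0 without batch I (0) and 1 with the covariate (40). In Input against Naïve mice it was 8 with DESeq2 (707 over all genes), 9 without the count filter and with dispersion not robust (981), and 9 with no batch term (567). It was 0 in batches J and K alone (17), 0 without batch J (133), 3 without batch K (281) and 0 without batch L (95). With the covariate it stayed at 5 (553). With each library left out, these 4 counts ran from 7 to 8, 5 to 9, 5 to 8 and 3 to 6. Without the count filter, with robust dispersion or not, 3 genes passed between non-Dependent and Naïve mice in IP, and 1 passed in each of the sex comparisons in IP. In those fits the median SE was 0.12 in IP against non-Dependent mice, and the cause was not tested. The fit without the filter and with dispersion not robust was chosen after seeing the data. In the paired analysis, without the mouse as a replicate block, 0 genes passed for the Dependent change against non-Dependent mice in IP minus that in Input, where 1 passed with it. At low counts, depth limits H2-Q4, H2-Q7, H2-M3 and Nlrc5.

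Between non-Dependent and Naïve mice in IP, signs turned with limma voom (H2-Q7 -0.35), no batch term (H2-D1 0.39, H2-K1 0.051, B2m 0.037, H2-T22 0.21, H2-M3 0.24), batches J and K alone (H2-D1 0.32, H2-K1 0.12, H2-T22 0.076, H2-M3 0.26), without batch I (H2-D1 0.21, H2-K1 0.057, H2-M3 0.090), J (H2-Q7 -0.74), K (H2-Q7 -0.69, H2-M3 0.095) or L (H2-D1 0.15, H2-M3 0.15), and with the covariate (H2-D1 0.032). In Input they turned with limma voom (H2-Q4 0.105), DESeq2 (H2-K1 0.024), no batch term (H2-D1 0.42, H2-K1 0.38, H2-T23 0.13, H2-T22 0.16, H2-Q4 0.15, H2-M3 0.22), batches J and K alone (H2-D1 0.45, H2-K1 0.64, B2m 0.08, H2-T23 0.19, H2-T22 0.11, H2-Q4 0.57), without batch I (H2-D1 0.42, H2-K1 0.62, B2m 0.057, H2-T23 0.15, H2-T22 0.15, H2-Q4 0.37), J (H2-T22 0.076, H2-Q7 -0.48), K (Nlrc5 -0.16) or L (H2-D1 0.16, H2-K1 0.19, H2-Q4 0.23), and with the covariate (H2-D1 0.39, H2-K1 0.47, B2m 0.12, H2-T23 0.039, H2-T22 0.057, H2-Q4 0.52). With a library left out, the IP values ran from -0.19 to 0.084 for H2-D1, -0.18 to 0.41 for H2-Q7 and -0.31 to 0.037 for H2-M3, and the Input values from -0.18 to 0.13 for H2-D1, -0.14 to 0.17 for H2-K1, -0.24 to 0.018 for H2-T22, -0.33 to 0.48 for H2-Q4 and -0.047 to 0.58 for H2-Q7. None of these had passed the test. Nlrc5 in Input against non-Dependent mice was -0.35 in batches J and K alone and -0.29 without batch I. H2-Q7 in IP over Input was -0.41 with limma within a mouse (adjusted p = 0.034, passing as lower), which also gave 0.72 for Nlrc5 in the fraction difference against non-Dependent mice. Without the block, H2-T22 in the fraction difference against Naïve mice was 0.0096. For the female minus the male change, H2-Q4 against Naïve mice was -0.20 in IP and -0.084 in Input with no batch term, H2-Q7 in IP was 0.42 with limma voom, H2-M3 in Input against non-Dependent mice was 0.080 with limma voom, and H2-T22 in Input against Naïve mice was 0.041 with limma voom and 0.075 with no batch term. The cause of these turns was not tested. Of the other single-gene values under these alternatives, 667 kept both direction and side of the threshold, 102 no longer passed and 33 newly passed.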
